A study of Drosophila melanogaster with 6 samples.

Results

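The mRNAs of 9 genes of insulin and TOR signalling were followed in RNA recovered with the zinc finger RNA-binding protein Zn72D from adult heads of Drosophila melanogaster. The genes, chosen by their FlyBase symbols, are InR, chico, Akt, foxo, Tor, raptor, S6k, Thor and Tsc1, and all 9 were found among the 17453 genes listed in each library. The RIP group was 3 libraries of RNA precipitated with an antibody against GFP, and the input group was 3 libraries from a small part of the same kind of lysate. Both groups came from flies of the genotype y1 w*; P{PTT-GA}Zn72D[CA07703], in which a protein trap inserted in Zn72D carries GFP, so the input flies carried the tag as well. Males and females were pooled, the flies were reared at 25 °C, and both groups were depleted of rRNA. The sources used here give neither the ages and numbers of flies nor whether the 3 numbered replicates came from separate collections. The p-values therefore describe the spread among these 6 libraries, part of which may be technical. Enrichment always means a level in RIP above that in input, since no precipitation from untagged flies was analysed here.

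Insulin-like peptides bind the receptor InR, whose signal passes through the adaptor chico and phosphoinositide 3-kinase to the kinase Akt. Akt keeps the transcription factor foxo out of the nucleus and relieves the inhibition that the Tsc1 complex places on the kinase Tor. Tor works in a complex with raptor, activates the kinase S6k and inactivates Thor, the fly 4E-BP, which otherwise holds back cap-dependent translation. In the fly head the pathway is known for its part in growth, metabolism and lifespan, and several of the insulin-like peptides are made by a small cluster of brain neurons.

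RIP libraries held 28070655 to 38182015 expected counts and input libraries 34401553 to 38331703, of which rRNA took 4.73% to 9.39% in RIP and 78.05% to 82.95% in input. Outside rRNA, 25434735 to 36377598 counts were left in the RIP libraries and 5864723 to 8182107 in the input libraries, so input values rest on fewer counts. The 9 genes had 1053 to 15167 counts each in the RIP libraries and 471 to 1706 in the input libraries. Markers of neurons, photoreceptors, glia, fat body and muscle, cell types of the fly head, were counted in every library, and none was at 0. All 4 neuronal markers (elav, nSyb, brp, Syt1) were enriched in RIP, with a summed level of 3142 to 4389 CPM in RIP and 1342 to 1757 CPM in input. None of the 4 markers each of photoreceptors, glia, fat body and muscle was enriched, while 1 of photoreceptors and 2 of muscle were depleted. The enriched neuronal markers averaged 2880.7 to 8919.4 bases, and the depleted Arr2, up and wupA 1547, 1518.3 and 1159.6 bases. Some markers that were not called were long as well, such as Mhc (6876.6 bases) and apolpp (10954.9 bases). The parts of cell type and of transcript length in these marker values, and in the values below, were not tested. The replicate 3 libraries stood apart in both groups, with a summed fat body marker level of 4394 CPM against 1973 and 2222 CPM in the other RIP libraries, and 3420 CPM against 1335 and 1587 CPM in the other input libraries. Their summed level of 2 testis markers was 6.92 CPM against 37.9 and 39.7 CPM in the other RIP libraries, and 7.62 CPM against 42.8 CPM in each of the other input libraries. For such differences between replicates, fewer cells of a type and less RNA per cell cannot be told apart.

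Of the 9 mRNAs, 4 were enriched in RIP (InR, Akt, S6k and Tsc1), 1 was depleted (Thor) and 4 did not pass the threshold (chico, foxo, Tor and raptor), by edgeR's quasi-likelihood test at an adjusted p under 0.05. Over all 11670 genes tested, 20.2% were enriched and 17% depleted. All members but Thor are longer than 2000 bases (a limit chosen after the values were seen), and among all 5250 tested genes of that length 41.0% were enriched, so 4 enriched of those 8 members is near the share of genes of like length. The median log2 fold change was 0.32 over the 9 genes and 0.06 over all genes tested. Over all tested genes of 2000 bases or more it was 0.42, above that of the members. The 3 RIP values lay above the 3 input values for 7 of the 9 genes, against 26.5% of all genes tested, and below them for Thor, against 24.3%. These shares of all genes were not taken by length. The labels do not say what the replicate numbers mark, and numbers 1 and 2 were not told apart between the groups. With the number taken as a block, 7 of the 9 were enriched, against 32.7% of all genes, and 1 was depleted, against 27.7%. Enriched members numbered 2 without input replicate 1 or without input replicate 2 and 7 without input replicate 3. RIP recovered long transcripts more than short ones in these libraries. Once a trend on transcript length was taken out of each library, InR alone was enriched, against 10.3% of all genes, and Tor and raptor were depleted, against 10.5%. With the block in that fit as well, InR alone was enriched, against 27.2%, and Tor, raptor and Tsc1 were depleted, against 23.1%.

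**Figure D1:**
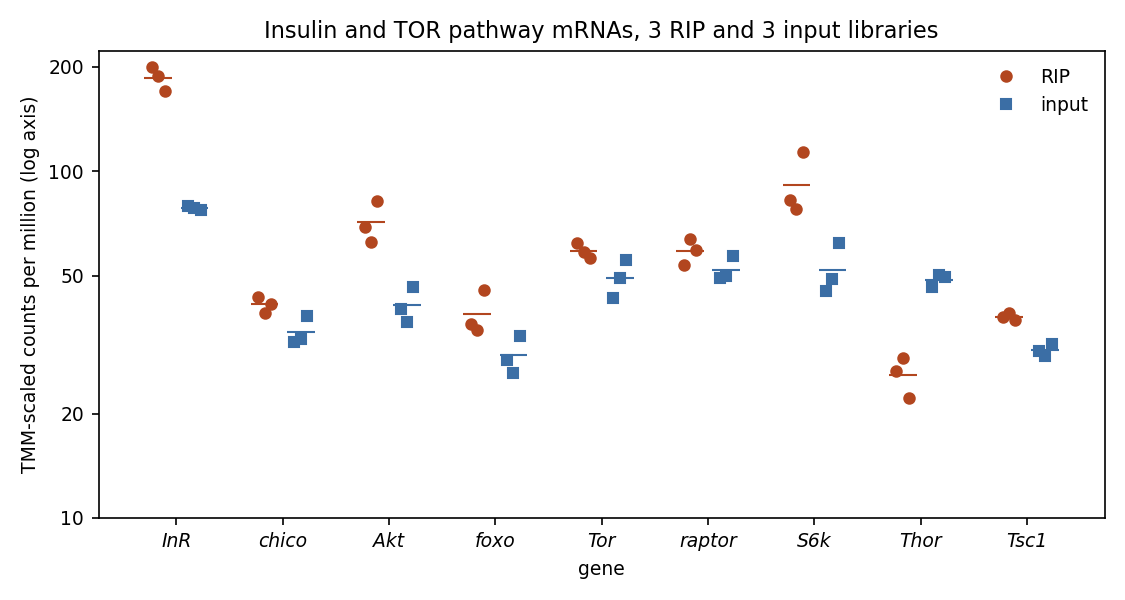
TMM-scaled CPM on a log axis for each of the 9 genes, with a point for each of 3 RIP libraries (circles) and 3 input libraries (squares) and a line at the group mean. The RIP points of InR lie highest, at 170.5 to 199.5 CPM against 77.3 to 79.4 CPM in input, and Thor is the gene whose RIP points all lie below its input points.

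The receptor mRNA was the most enriched of the 9. InR (FBgn0013984 in the files; dm6 chromosome 3R, 21570248 to 21619321, minus strand) had 199.5, 187.8 and 170.5 CPM in RIP, against 79.4, 78.5 and 77.3 CPM in input. CPM here are counts scaled to a common library size and by TMM, the trimmed mean of M-values, which sets the bulk of genes equal between libraries. Every RIP value of InR was more than 2 times every input value, and the input values lay within a few percent of each other. The log2 fold change was 1.25 ± 0.09 (SE; 2.37-fold; 95% interval 1.03 to 1.46; edgeR adjusted p = 0.000375), which put InR at the 96.2nd percentile of all genes tested. InR was the only member called enriched under all 18 alternatives, though removal of the length trend left a log2 fold change of 0.38 (adjusted p = 0.0385, the highest of a range that began at 7.5e-67).

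The adaptor chico, the fly insulin receptor substrate (FBgn0024248; 2L, 10242512 to 10247078, minus strand), stood much nearer to its input level. It had 43.3, 39.1 and 41.5 CPM in RIP and 32.1, 32.7 and 38.2 CPM in input, with no overlap between the groups. The difference, at log2 0.27 ± 0.10, missed the threshold (edgeR adjusted p = 0.0811) and passed with the replicate block (0.27, adjusted p = 0.0115). Exons of chico lie opposite 380 bases of asRNA:CR44995. The expected counts of chico were whole numbers in every library, so no division of reads with another gene shows in them. Whether reads were counted by strand is not stated, so any reads of the opposite strand among them cannot be told apart.

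Akt, the kinase at the centre of the pathway (FBgn0010379; 3R, 16099228 to 16105670, plus strand), was enriched 1.73-fold. Its levels were 68.9, 62.4 and 82.2 CPM in RIP and 40.1, 36.7 and 46.5 CPM in input. Replicate 3 was the highest in both groups, and the lowest RIP value still lay above the highest input value. The log2 fold change was 0.79 ± 0.14 (95% interval 0.45 to 1.13; edgeR adjusted p = 0.00627). It was 0.17 with the length trend removed, where the call was lost (adjusted p = 0.35, within 2.57e-08 to 0.35 over the alternatives).

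foxo, the forkhead transcription factor that Akt restrains (FBgn0038197; 3R, 14056945 to 14087978, plus strand), had 36.2, 34.8 and 45.5 CPM in RIP and 28.6, 26.2 and 33.5 CPM in input. The groups did not overlap, with replicate 3 again the highest in each. The log2 fold change of 0.40 ± 0.15 missed the threshold (edgeR adjusted p = 0.0781) and passed with the replicate block (0.40, adjusted p = 0.000364).

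Neither subunit of the TOR complex passed. Tor, the kinase (named mTor in the annotation used; FBgn0021796; 2L, 13004480 to 13013197, plus strand), had 62.1, 58.5 and 56.1 CPM in RIP and 43.0, 49.1 and 55.4 CPM in input, with a log2 fold change of 0.26 ± 0.11 (95% interval -0.01 to 0.53; edgeR adjusted p = 0.125). The groups were separated by less than 1 CPM, between RIP replicate 3 and input replicate 3. With the replicate block Tor was called enriched (0.265, adjusted p = 0.0176).

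raptor, the scaffold of that complex (FBgn0029840; X, 6082634 to 6090201, minus strand), had 53.8, 63.7 and 59.5 CPM in RIP and 49.1, 50.0 and 56.9 CPM in input. It was the member whose groups overlapped, and its log2 fold change was 0.18 ± 0.10 (95% interval -0.07 to 0.43; edgeR adjusted p = 0.228; with the replicate block 0.18, adjusted p = 0.0681). Exons of raptor share 1669 bases with Mipp2 on the same strand and lie opposite 241 bases of asRNA:CR44959. Its expected counts were fractional in every library, so the division of reads there is uncertain. With the length trend removed both subunits were called depleted, Tor at -0.53 (adjusted p = 0.00801) and raptor at -0.59 (adjusted p = 0.00807).

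The mRNAs of the pair of direct Tor targets moved in opposite directions relative to the bulk of genes. S6k, the ribosomal protein S6 kinase (FBgn0015806; 3L, 5797549 to 5810931, minus strand), had 82.6, 77.9 and 113.6 CPM in RIP and 45.0, 48.7 and 62.3 CPM in input. Replicate 3 was the highest in each group and the groups did not overlap. S6k rose 1.76-fold, with a log2 fold change of 0.81 ± 0.19 (95% interval 0.35 to 1.27; edgeR adjusted p = 0.0178). The call was lost without input replicate 1 (adjusted p = 0.0674), without input replicate 2 (0.0683) and with the length trend removed (log2 0.19, adjusted p = 0.448), within 2.37e-08 to 0.448 over the alternatives. Without RIP replicate 3 the value was 0.53, still called.

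Thor, the translational repressor (FBgn0261560; 2L, 3478434 to 3479612, plus strand), had 26.5, 29.0 and 22.1 CPM in RIP and 46.4, 50.3 and 49.5 CPM in input. All RIP values lay well below all input values, and Thor fell 1.88-fold. Its log2 fold change was -0.91 ± 0.12 (95% interval -1.20 to -0.63; edgeR adjusted p = 0.002). It turned positive under library size alone, at 0.93 beside an all-gene median of 1.90, and in log2(TPM + 1), at 2.45 beside a median of 2.54. With the length trend removed it stood at 0.08 (adjusted p = 0.592, within 3.79e-14 to 0.592 over the alternatives). Thor is the shortest of the 9 transcripts, with a mean length of 744.3 bases where the others ran from 3209.6 to 10592.1 bases.

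Tsc1, which with gig (Tsc2) inhibits Tor through the GTPase Rheb (FBgn0026317; 3R, 24130307 to 24134654, plus strand), had 38.0, 39.0 and 37.1 CPM in RIP and 30.2, 29.2 and 31.8 CPM in input. The highest input value lay well below the lowest RIP value. Tsc1 rose 1.25-fold (log2 0.32 ± 0.08; 95% interval 0.14 to 0.51; edgeR adjusted p = 0.0179). The call was lost with upper quartile scaling (log2 0.21, adjusted p = 0.0594), without rRNA genes (0.18, adjusted p = 0.12), without RIP replicate 2, input replicate 1 or input replicate 2 (adjusted p up to 0.116), and with the length trend removed (-0.21, adjusted p = 0.0816), within 1.92e-06 to 0.12 over the alternatives.

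**Figure D2:**
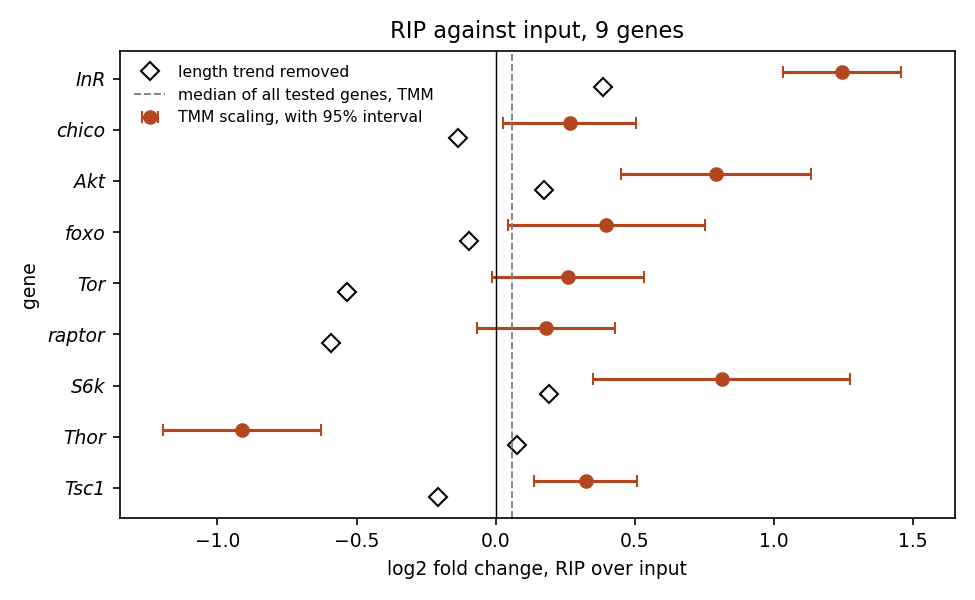
Log2 fold change of RIP over input for the 9 genes. Filled circles with bars give the edgeR estimate under TMM scaling with its 95% interval, open diamonds the estimate with the length trend removed, and the dashed line the median of all genes tested (0.06). InR is at 1.25 and 0.38 and stays right of 0 in both, while the diamonds of Tor and raptor lie at -0.53 and -0.59 and that of Thor at 0.08.

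A ratio of 2 mRNAs within a library does not depend on the scaling between libraries, so 4 pairs were compared in that way. With an exact test, 3 libraries against 3 cannot give an exact two-sided permutation p below 0.1. The pairs raptor over Tor and Tsc1 over gig, each of partners in a complex, showed no clear difference in ratio. Other partners were not compared in this way. Some of them differed in log2 fold change, such as Wdr59 (0.79) and Nup44A (-0.97), which share a complex. There were 0.866, 1.09 and 1.06 raptor counts for each Tor count in RIP, against 1.14, 1.02 and 1.03 in input, a log2 difference of -0.09 (exact permutation p = 0.6). Tsc1 over gig was 0.744, 0.775 and 0.746 in RIP and 0.852, 0.762 and 0.739 in input, a log2 difference of -0.05 (exact permutation p = 0.7). In both pairs the groups overlapped, and the signs changed when replicate 1 was left out (0.07 and 0.02).

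The other pairs differed between the groups without overlap. InR over its adaptor chico was 4.61, 4.80 and 4.11 in RIP and 2.47, 2.40 and 2.03 in input, a log2 difference of 0.97 (exact permutation p = 0.1, the smallest possible). S6k over Thor was 3.12, 2.68 and 5.13 in RIP and 0.971, 0.969 and 1.26 in input, a log2 difference of 1.73 (exact permutation p = 0.1, the smallest possible). These ratios are not adjusted for transcript length, which averaged 10592.1 bases for InR and 3209.6 for chico, and 4659.4 for S6k and 744.3 for Thor. With the length trend removed, the log2 fold changes were 0.38 for InR and -0.13 for chico. They were 0.19 for S6k and 0.08 for Thor. The 4 p-values adjusted over the 4 pairs were 0.2 for InR over chico, 0.2 for S6k over Thor, 0.7 for raptor over Tor and 0.7 for Tsc1 over gig.

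**Figure D3:**
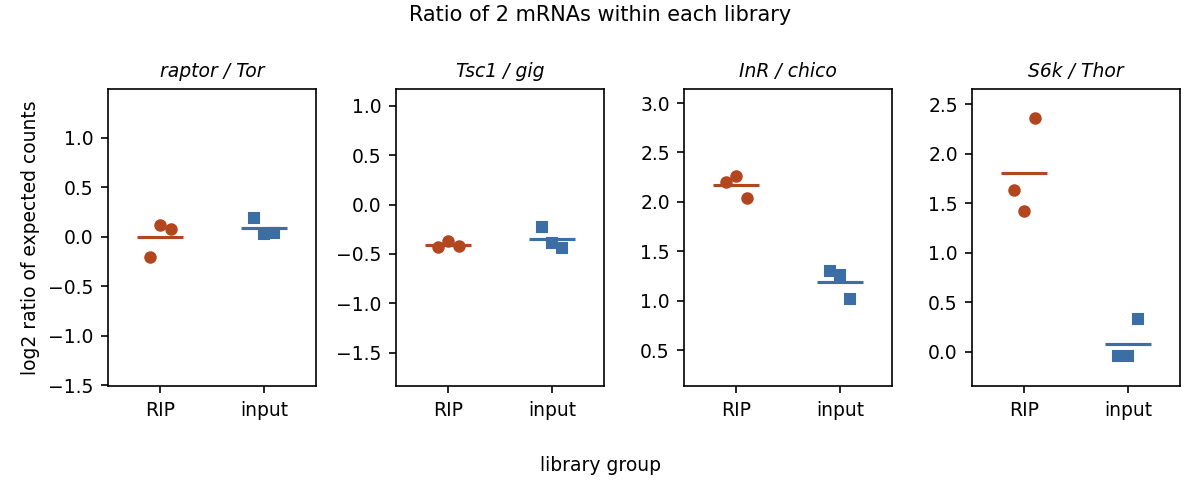
Log2 ratio of the expected counts of 2 mRNAs in each of 3 RIP libraries (circles) and 3 input libraries (squares), with a line at each group mean. The panels span the same 3 log2 units, and the ratios are not adjusted for transcript length. The RIP points of InR over chico (mean 2.17) and of S6k over Thor (1.81) lie above the input points (1.196 and 0.08), and those of raptor over Tor (0.00 and 0.09) and Tsc1 over gig (-0.41 and -0.35) overlap.

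Levels per transcript length were compared between the 9 genes within a library, in TPM as deposited. TPM of RIP and input are not set against each other, because rRNA takes most of the input. In RIP the order was Thor (223 ± 54.3 TPM; SD, n = 3), S6k (92.8 ± 9.08), InR (84.9 ± 17.6), Akt (71.9 ± 4.57), chico (65.2 ± 9.56), foxo (51.7 ± 1.69), Tsc1 (49.0 ± 7.59), raptor (40.6 ± 6.18) and Tor (36.1 ± 6.51). In input it was Thor (39.6 ± 6.63), S6k (5.52 ± 1.36), chico (5.19 ± 0.886), Akt (4.44 ± 0.615), foxo (3.86 ± 0.586), Tsc1 (3.74 ± 0.45), InR (3.49 ± 0.415), raptor (3.45 ± 0.552) and Tor (2.90 ± 0.63). Thor was the highest in all 6 libraries, with no overlap with S6k below it. InR ranked 2, 2 and 4 of the 9 in the RIP libraries and 7, 6 and 8 in the input libraries. Ranges of neighbours in the order overlapped otherwise, except those of chico and foxo in RIP.

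The deposited tables also give a mean transcript length per gene, which weights the isoforms of a gene by their estimated abundance and so gives a second readout of the same mRNAs. Among the 8 members with more than 1 isoform, InR, Akt and Thor were longer in RIP than in input by limma at an adjusted p under 0.05 and none was shorter, while over all 6410 genes with varying length 12.7% were longer and 3.31% shorter. In 4 members (InR, Akt, S6k and Thor) every RIP length lay above every input length, against 26.8% of those genes. The mean sequenced fragment was 195, 195 and 207 bases in RIP and 172, 171 and 162 bases in input, and its part in the length estimates was not tested.

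For InR the isoforms differ in their first exons. They share a coding sequence of 6432 bases and a 3′ UTR of 3143 bases, and 2 start far upstream on 3R, at 21619036 and 21619321, while 2 start at 21590191 and 21592121 and have a shorter 5′ UTR. The mean length of InR was 10697.3, 10698.6 and 10702.0 bases in RIP, against 10473.3, 10460.7 and 10520.8 bases in input (log2 0.029 ± 0.0026; limma adjusted p = 0.00543). Given the annotated lengths, the upstream-start isoforms made up at least 98.6% of InR transcripts in each RIP library, and between 61.9% and 74.9% in the input libraries.

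Akt and S6k each have an isoform with an extended 3′ UTR. In Akt it ends at 16105670 in place of 16104515 and has 2556 bases of 3′ UTR in place of 1401. Its mean length was 4842.0, 4846.1 and 4864.8 bases in RIP and 4343.2, 4356.8 and 4483.9 bases in input (log2 0.14 ± 0.014; limma adjusted p = 0.00659), which puts the extended isoform at 97.7% or more in each RIP library and between 54.5% and 75.4% in input.

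In S6k the extended isoform ends at 5797549 in place of 5798948 and has 2881 bases of 3′ UTR in place of 1482. It made up 99.1%, 99.9% and 83.0% of S6k transcripts in RIP and 78.7%, 69.1% and 73.3% in input. RIP replicate 3 was the lowest of the RIP libraries, and the difference in length did not pass (log2 0.088 ± 0.024; limma adjusted p = 0.0799), but did without RIP replicate 3 (log2 0.11, adjusted p = 0.0342).

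The 2 isoforms of Thor start at 3478434 and 3478522 and differ by 88 bases at the 5′ end. The longer made up 100%, 98.5% and 100% of Thor transcripts in RIP and 76.6%, 70.3% and 81.8% in input (log2 of the mean length 0.040 ± 0.006; limma adjusted p = 0.0175). The call was lost with the replicate block (adjusted p = 0.0671) and in 4 of the 6 fits without a library (limma adjusted p up to 0.0802). The estimates thus gave Thor more of its longer isoform in RIP, with a call that was not stable. Its mRNA as a whole fell under TMM but not with the length trend removed (log2 0.08). The lengths of chico (3213.3 ± 5.1 bases in RIP and 3205.9 ± 25.7 in input) and foxo (3721.0 ± 7.1 and 3656.8 ± 60.0) overlapped between the groups. The isoforms of Tor and of raptor differ by 3 and 25 bases, too few to tell, and Tsc1 is listed with 1 isoform.

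**Figure D4:**
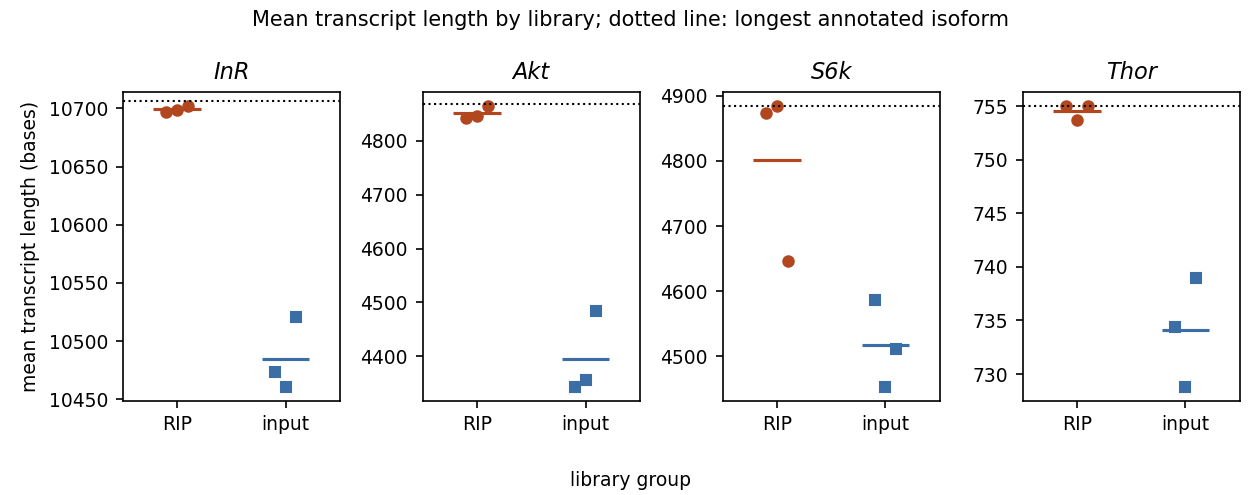
Mean transcript length in bases, as the authors' tables give it, of InR, Akt, S6k and Thor in 3 RIP (circles) and 3 input libraries (squares), with a line at each group mean and a dotted line at the longest annotated isoform. Each panel has its own axis, which does not start at 0. RIP points lie near the dotted line, except S6k in RIP replicate 3 at 4646.8 bases, and input points lie below.

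Around these 9, 55 other genes of the pathway were listed by role, of which 50 were tested. PRAS40 was not analysed here. Of the 50, 19 rose, 10 fell and 21 did not pass, with a median log2 fold change of 0.30 beside 0.06 for all genes. The shares over all genes were 20.2% and 17%, and the counts by role below are to be read beside them. Among all tested genes under 2000 bases the shares were 3.3% and 28.3%, and at 2000 bases or more 41.0% and 3.31%. With library size alone the counts were 46 and 0, and in TPM 50 and 0, where nearly all genes stand above 0. Removing the length trend gave 11 and 7, and adding the replicate block to that fit gave 15 and 16.

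Among the ligands and secreted binding proteins 0 of 6 tested rose and 2 fell. Ilp2, an insulin-like peptide of the brain's insulin-producing cells, had 0.921, 0.958 and 0.988 CPM in RIP and 3.65, 4.74 and 5.77 CPM in input, a 4.93-fold fall (log2 -2.30 ± 0.22; edgeR adjusted p = 0.000822). This rests on 47 to 72 counts in RIP and 60 to 112 in input. Ilp2 was at -1.17 with the length trend removed (adjusted p = 0.0268). Under library size alone the value was -0.47 and not called, and in log2(TPM + 1) it turned to 1.01. Ilp5 of the same cells was at -2.08 ± 0.53 (edgeR adjusted p = 0.0238) on 9 to 24 counts a library, and lost its call in 4 of the 6 fits without a library. The call was also lost with the length trend removed (-0.52, adjusted p = 0.577; with the block -0.49, adjusted p = 0.299) and under library size alone (-0.23, adjusted p = 0.675), and in log2(TPM + 1) the value turned to 0.99. Ilp3 did not pass (-0.88 ± 0.44, adjusted p = 0.182), and neither did Ilp6, ImpL2 or Sdr, and the other 4 peptides had too few counts to be tested.

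Adaptors, PI3K and phosphoinositide steps showed 6 of 8 genes enriched and none depleted. All 8 average over 2000 bases, a length at which 41.0% of all tested genes were enriched and only 3.31% depleted. Pdk1, the kinase that phosphorylates Akt, had 353, 308 and 448 CPM in RIP and 149.8, 143.5 and 165.6 CPM in input (log2 1.27 ± 0.16; edgeR adjusted p = 0.00168). Pi3K21B, the regulatory subunit of PI3K, rose 2.36-fold (log2 1.24 ± 0.20; edgeR adjusted p = 0.00449). Both stayed called under all 18 alternatives.

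Of 5 regulators and partners of Akt and foxo, 2 rose and none fell. 14-3-3zeta, which binds phosphorylated foxo, rose 2.47-fold (log2 1.30 ± 0.26; edgeR adjusted p = 0.00947). The kinase sgg, the fly GSK3, rose 1.74-fold (log2 0.80 ± 0.18; edgeR adjusted p = 0.0153), and lost its call without input replicate 1 or 2 and with the length trend removed (adjusted p up to 0.353, within 6.35e-08 to 0.353).

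Of 8 genes of the TSC, Rheb and their regulators, 3 rose and 2 fell. charb (chrb in the annotation used), an inhibitor of Tor signalling that acts through the TSC, had 537, 455 and 1040 CPM in RIP and 168, 173 and 284 CPM in input (log2 1.70 ± 0.38; edgeR adjusted p = 0.0146). Replicate 3 was the highest in both groups, and the call was lost without input replicate 1 (1.565) or 2 (1.58) and with the length trend removed (1.00, adjusted p = 0.0912, within 4.65e-12 to 0.0912). With the replicate block in the length fit charb was called (0.93, adjusted p = 5.13e-05). SNF4Agamma, a subunit of AMP-activated kinase, rose 1.68-fold, and its call was lost with the length trend removed (log2 0.14, adjusted p = 0.458, within 6.27e-08 to 0.458).

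Rheb, the GTPase that activates Tor, had 6.49, 6.30 and 5.72 CPM in RIP and 14.1, 13.4 and 17.1 CPM in input, a 2.41-fold fall (log2 -1.27 ± 0.14; edgeR adjusted p = 0.00112). Its sign was positive under library size alone (0.58) and in log2(TPM + 1) (1.95), in both cases below the median of all genes. With the length trend removed Rheb was still called depleted (-0.80, adjusted p = 0.00925), as it was with the replicate block in that fit (-0.79, adjusted p = 3.89e-05). gig rose 1.29-fold (log2 0.37 ± 0.09; edgeR adjusted p = 0.0229). Its call was lost in 3 of the 6 fits without a library, under RLE scaling (adjusted p = 0.0503) and without rRNA genes (0.101), and with the length trend removed it was called depleted (-0.34, adjusted p = 0.014), within 2.33e-06 to 0.101.

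The other TOR complex subunits included Lst8, shared by both TOR complexes, at 10.4, 9.36 and 11.0 CPM in RIP and 5.83, 5.15 and 5.51 CPM in input (log2 0.90 ± 0.12; edgeR adjusted p = 0.00252). rictor, of the second TOR complex, rose 1.35-fold (log2 0.43 ± 0.10; edgeR adjusted p = 0.0147), and lost its call without rRNA genes (adjusted p = 0.0694) and without RIP replicate 2 (0.0688). With the length trend removed it was called depleted (-0.32, adjusted p = 0.0345, within 2.95e-06 to 0.0694). Sin1 did not pass. So of the TOR complex mRNAs examined, Lst8 had the highest fold change and is shorter, at 1760 bases, than Tor, raptor and rictor.

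Amino acid sensing genes gave 1 enriched and 3 depleted of 10 tested. Wdr59, of the GATOR2 complex, rose 1.73-fold (log2 0.79 ± 0.14; edgeR adjusted p = 0.00576), a call lost with the length trend removed (0.38, adjusted p = 0.109, within 5.55e-07 to 0.109) and kept with the replicate block in that fit (0.37, adjusted p = 0.00345). Nup44A, the fly Seh1 and a subunit of the same complex, fell 1.96-fold (log2 -0.97 ± 0.17; edgeR adjusted p = 0.00589). It had positive values under library size alone (0.88) and in log2(TPM + 1) (2.07), below the medians of all genes, and lost its call with the length trend removed (-0.51, adjusted p = 0.0971, the highest of a range from 1.82e-05) but not with the replicate block in that fit (-0.51, adjusted p = 0.0139).

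Of 10 outputs of TOR and foxo, 5 rose and 3 fell. Myc, a transcription factor of growth, had 219.8, 203.3 and 224.1 CPM in RIP and 57.9, 63.0 and 59.4 CPM in input, a 3.59-fold rise (log2 1.84 ± 0.08; edgeR adjusted p = 0.000143) that was the highest among the 59 tested genes of the pathway under TMM with all 6 libraries. Myc was at 1.099 with the length trend removed (adjusted p = 0.00338), below 14-3-3zeta at 1.24. charb stood above Myc in log2(TPM + 1) (4.899 against 4.895) and without RIP replicate 1, RIP replicate 2 or input replicate 3. Mitf, a transcription factor of lysosomal genes, rose 2.17-fold (log2 1.12 ± 0.16; edgeR adjusted p = 0.0031). REPTOR-BP, the partner of the TORC1-repressed factor REPTOR, fell 2.43-fold (log2 -1.28 ± 0.14; edgeR adjusted p = 0.00118). Its value was positive under library size alone (0.56) and in log2(TPM + 1) (2.19), below the medians of all genes. It is 529.6 bases long on average, and with the length trend removed it stood at 0.13 (adjusted p = 0.52, within 1.07e-15 to 0.52).

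**Figure D5:**
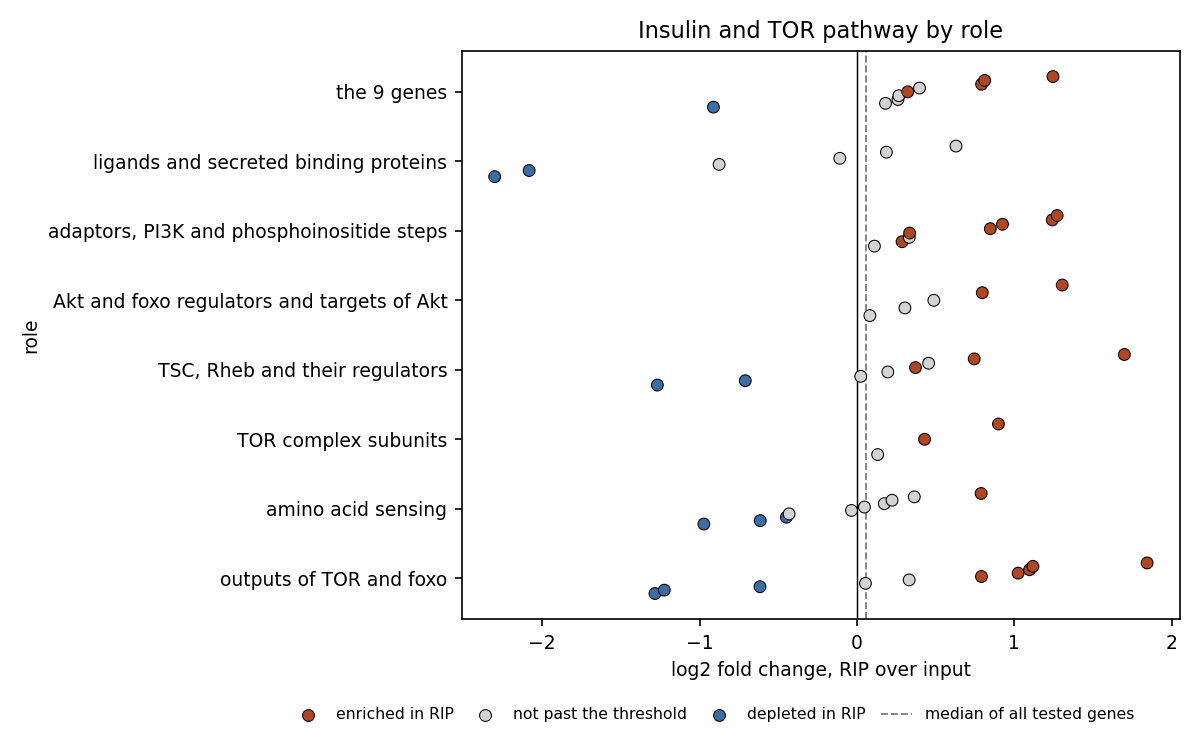
Log2 fold change of RIP over input for the 9 genes and 50 other tested genes of the pathway, by role. Colour marks genes past the edgeR threshold in each direction and the dashed line is the median of all genes tested (0.06). Myc is farthest right at 1.84 and Ilp2 farthest left at -2.30, and each role except the adaptors and PI3K, the Akt and foxo regulators and the TOR complex subunits holds genes past the threshold on the left.

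The genes most like InR and Thor over the 6 libraries were sought among 11586 tested genes outside these lists, by the Euclidean distance between gene-centred log2 CPM. For InR they were CG12851 (distance 0.155, log2 fold change 1.18), Nadsyn, a NAD synthetase (0.184 and 1.13), and LIMK1, a LIM domain kinase (0.199 and 1.31). For Thor they were TfIIFalpha, a general transcription factor subunit (0.114 and -0.92), sals, a sarcomere length factor (0.119 and -0.90), and CG9286 (0.137 and -0.94). Likeness in fold change follows from this choice, which used the same 6 libraries. The 3 genes near Thor, like Thor, had positive values under library size alone (0.93, 0.95 and 0.91) and in log2(TPM + 1) (2.16, 2.25 and 1.73), below the medians of all genes. Their mean lengths ran from 999 to 3230 bases. With the length trend removed, where Thor stood at 0.08, TfIIFalpha was at -0.88 (edgeR adjusted p = 0.00807) and sals at -1.305 (adjusted p = 0.00412), both still called, and CG9286 was at -0.31 (adjusted p = 0.349). The mRNA of Zn72D itself had 66.8, 73.4 and 71.5 CPM in RIP and 47.3, 51.9 and 52.4 CPM in input, within the range of the members. It was called enriched (log2 0.48 ± 0.08, edgeR adjusted p = 0.00558). That call was lost without RIP replicate 2 (0.415, adjusted p = 0.0631) and with the length trend removed (-0.005, adjusted p = 0.971).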

How the data were processed

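Libraries were 3 RIP and 3 input. Per the submitters' processing notes, the tools were DESeq2 1.20.0, RSEM 1.2.30, Trim Galore 0.4.5 and STAR 2.5.4b, and the build was dm6. Neither an annotation release nor a strand setting is stated. Per the file headers, each deposited table holds expected counts by RSEM, TPM, and mean transcript and effective lengths per gene. TPM, as deposited, is shared with rRNA.

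Symbols and dm6 coordinates came from Ensembl release 115, where InR and S6k were matched through their transcripts. Expected counts were rounded, filtered with filterByExpr, scaled by TMM and tested with edgeR 4.0.16 (R 4.3.3) on the group term, adjusted by Benjamini-Hochberg over 11670 genes. The SE is the fold change divided by the square root of its F value. Log2 transcript length was tested with limma 3.58.1 over 6410 genes, and ratios with exact two-sided permutation tests (scipy 1.17.1). The edgeR test, the removal of the length trend and the limma length test were run on simulated data. The simulated libraries were independent, and their counts had less spread than was estimated here. Neither the permutation tests nor the replicate block were checked in that way.

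Deviations from group means correlated at 0.665, 0.604 and 0.848 between same-numbered RIP and input libraries. The labels give the numbers without explanation, and numbers 1 and 2 were not told apart (0.604 and 0.626 across them). The main edgeR and limma fits and the permutation tests took no account of the number. It was used as a pairing only in the alternatives. Alternatives covered scaling, filter, tool (DESeq2 1.42.0, limma-voom, limma on log2(TPM + 1)), rRNA, block, length trend (lowess, span 0.3) and left-out libraries. Named pathway genes are, for each role, the 2 highest and 1 lowest fold changes past the threshold; Ilp5, Ilp3 and gig are named besides, gig as part of a fixed pair and Ilp3 and Ilp5 as markers of the insulin-producing cells. Members and lists were chosen with earlier results of these data known.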

Additional observations from a re-analysis of the deposited data

How the results depend on the processing

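Without one library, all 9 genes kept their sign. The log2 fold changes then ran from 1.17 to 1.25 for InR, 0.16 to 0.35 for chico, 0.58 to 0.89 for Akt, 0.17 to 0.50 for foxo, 0.17 to 0.35 for Tor, 0.08 to 0.25 for raptor, 0.53 to 0.96 for S6k, -1.05 to -0.89 for Thor and 0.24 to 0.36 for Tsc1, and enriched members numbered 2 to 7. Leaving out input replicate 3 brought chico, foxo and Tor past the threshold, the calls of S6k and Tsc1 were lost without input replicate 1 or 2, and that of Tsc1 also without RIP replicate 2. The log2 ratio of raptor over Tor ran from -0.18 to 0.072. Without both replicate 3 libraries foxo (0.22) and Tor (0.23) were called enriched, and 3419 of all genes were depleted.

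The replicate block brought chico (0.268), foxo (0.396) and Tor (0.265) past the threshold, for 7 enriched members, and changed no other member's fold-change call. It called 3821 of all genes enriched and 3230 depleted, against 2362 and 1989 without it, and it ended the call on the length of Thor (0.0398).

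Library size alone moved the median of all genes to 1.90 and called all 9 members and 46 other pathway genes enriched and 0 of either depleted, with 9386 of all genes enriched and 173 depleted. Values were 2.11 for chico, 2.23 for foxo, 2.10 for Tor, 2.02 for raptor, 0.93 for Thor, 0.58 for Rheb, 0.88 for Nup44A, 0.56 for REPTOR-BP, 0.93 for TfIIFalpha, 0.95 for sals and 0.91 for CG9286. In log2(TPM + 1) the median was 2.54, 9 members and 50 other pathway genes were enriched and 0 depleted, and 11296 of all genes were enriched and 25 depleted. Values were 3.42 for chico, 3.45 for foxo, 3.25 for Tor, 3.22 for raptor, 2.45 for Thor, 1.01 for Ilp2, 0.99 for Ilp5, 1.95 for Rheb, 2.07 for Nup44A, 2.19 for REPTOR-BP, 2.16 for TfIIFalpha, 2.25 for sals and 1.73 for CG9286. Against the medians, Thor lay below the bulk of genes and the other 8 members above it under both. Tsc1 lost its call under upper quartile scaling (0.21) and without rRNA genes (0.18), which moved the median to -0.06 and -0.09.

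With the length trend removed, without and with the replicate block, the values were -0.134 and -0.135 for chico, 0.172 and 0.168 for Akt, -0.096 and -0.10 for foxo, -0.533 and -0.535 for Tor, -0.591 and -0.593 for raptor, 0.193 and 0.18 for S6k, 0.077 and 0.076 for Thor, -0.208 and -0.207 for Tsc1, -0.325 and -0.326 for rictor, -0.34 and -0.341 for gig, 0.126 and 0.127 for REPTOR-BP and -0.005 in both for Zn72D. Enriched members numbered 1 in both fits and depleted members 2 and 3. Of the other pathway genes 11 were enriched without the block and 16 depleted with it, and of all genes 1200 were enriched and 1231 depleted without it. The cause was not tested.

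For the mean transcript length, leaving out a library gave 0.075 to 0.11 for S6k, which passed without RIP replicate 3, 0.035 to 0.045 for Thor, whose call was lost in 4 of 6 such fits (adjusted p 0.053 to 0.0802), -0.0017 to 0.0096 for chico and -0.0002 to 0.0003 for raptor. Effective length, which subtracts the longer RIP fragments by its construction, gave 0.081 for S6k (called), -0.027 for Thor, -0.0113 for chico, -0.0057 for Tor and -0.0064 for raptor. Input values rest on 471 to 1706 counts a member and RIP values on 1053 to 15167. The spread between libraries was not always wider in input. Its SD was 1.05 CPM in input and 14.6 CPM in RIP for InR, but 6.22 and 3.03 CPM for Tor.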

Other observations

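The pathway genes split by transcript length in the same direction as all genes, with a larger share depleted among the short ones. The split at 2000 bases was chosen after the values were seen, so it is a description. Of the 15 other pathway genes with a mean length under 2000 bases, 2 were enriched in RIP and 9 depleted, beside 3.3% and 28.3% of all 6420 tested genes of that length. Of the 35 longer ones, 17 were enriched and 1 was depleted, beside 41.0% and 3.31% of all 5250 such genes. The median log2 fold change was -0.71 for the shorter pathway genes, beside -0.38 for all genes of that length. For the longer ones it was 0.365 beside 0.42. The 1 long gene that was depleted was Wdr24, of the GATOR2 complex, at 2702 bases and log2 -0.61 ± 0.14 (edgeR adjusted p = 0.0179), and the 2 short genes that were enriched were Lst8 and Maf1, a repressor of RNA polymerase III transcription, at 1690.4 bases and log2 1.02 ± 0.22 (edgeR adjusted p = 0.013). Among the 9 genes, Tor and raptor had a mean length of 7984.6 and 7095.9 bases, below that of InR alone, and the lowest fold changes apart from Thor.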
